A study of Rattus norvegicus with 20 samples.

Results

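The growth hormone and insulin-like growth factor (IGF) axis was followed in inguinal white adipose tissue (iWAT), a subcutaneous fat depot, of ZSF1 rats. Its genes were taken by symbol from the gene count table and comprise the receptors Ghr and Igf1r, the ligands Igf1 and Igf2 and the binding proteins Igfbp2 to Igfbp7. These are 10 of the 32545 genes in the table, and all 10 were among the 17653 genes with enough reads to be tested.

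Growth hormone is secreted by the pituitary and acts on the receptor encoded by Ghr. The receptor signals through the kinase JAK2 and the transcription factor STAT5, which drives expression of Igf1 and of feedback inhibitors such as Cish and Socs2. Igf1 made in fat and other tissues acts locally through Igf1r, while IGF binding proteins hold the ligands outside the cell and set how much of them reaches the receptor.

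Transcript reads were counted in 20 libraries, 1 from each of 20 adult male rats, with 5 rats per group. The ZSF1 obese rat lacks a working leptin receptor (Lepr) and overeats. The Cmpd 1 group was of obese rats given Purina 5008 chow mixed with Cmpd 1, an inhibitor of protein kinase C alpha and beta. The Food matched group was of obese rats on restricted Purina 5008 chow. Its amount was set each week to the estimated intake of the Cmpd 1 group in the week before, so the match was staggered. The Obese group was of untreated obese rats on the same chow. The Lean group was of untreated lean ZSF1 littermates on that chow. The deposited phenotype reads lean for the Food matched samples, against their titles and the study's methods, and they were taken as obese. Cmpd 1 versus Food matched sets the compound against a like food supply, and Obese versus Lean sets the obese state against the lean one.

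Each library held between 31716457 (Cmpd 1 rat 4) and 74784655 (Food matched rat 2) counted reads. Of 7 adipocyte markers, 6 were abundant in every library and Pnpla2 stayed between 0.175 and 1.22 CPM (read counts scaled to a common library size, with TMM factors). Lean rats 1 and 2 also held skeletal muscle transcripts, with 6 marker genes summing to 2801 and 4848 CPM, against at most 78.4 CPM in any other library. Values of all members in every rat are drawn in the plot of CPM per rat. In bulk tissue, fewer cells of a type and less RNA per cell cannot be told apart, which holds for each result that follows.

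**Figure D1:**
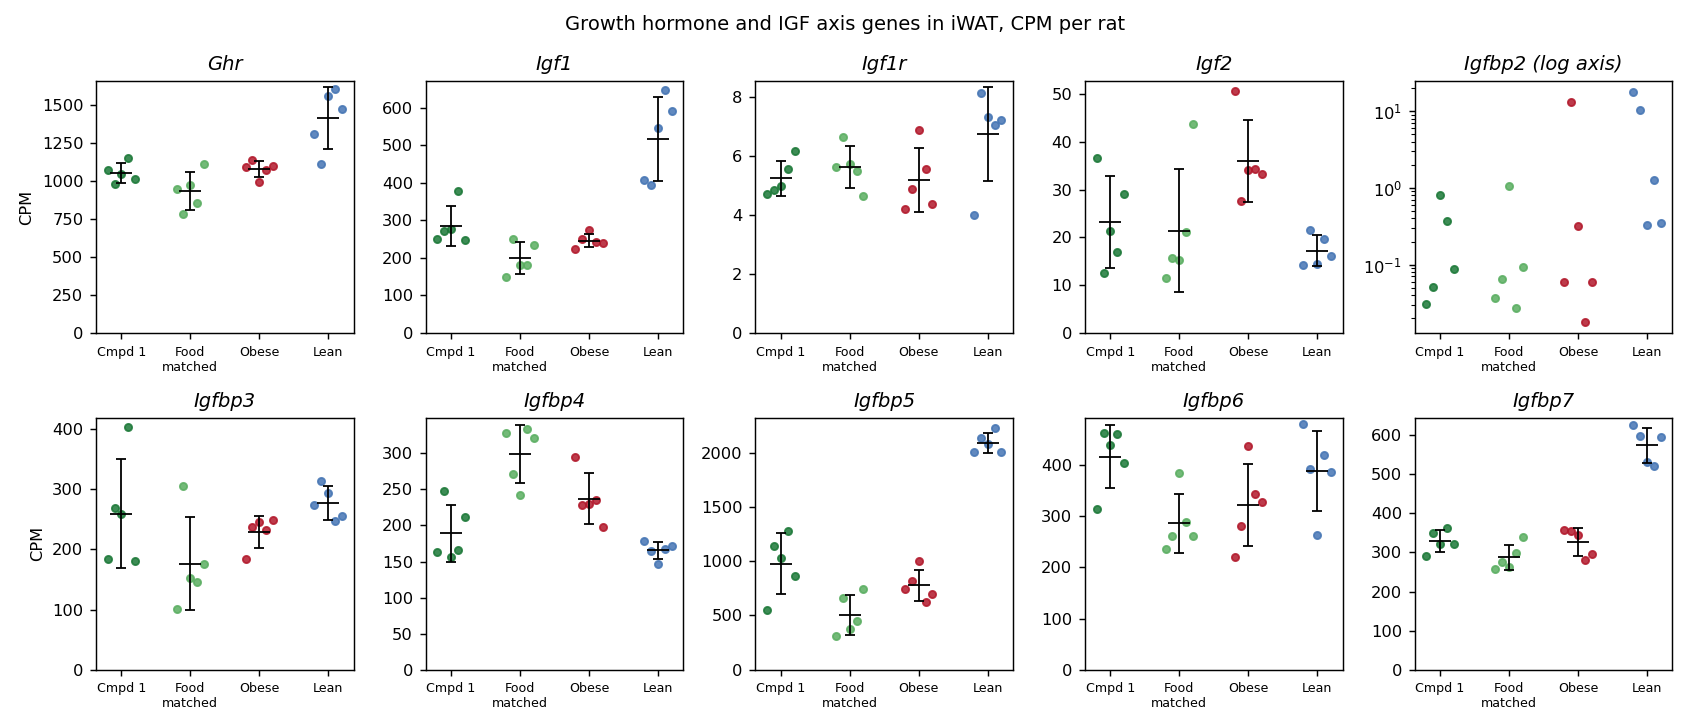
CPM of the 10 genes in each rat, by group (Cmpd 1, Food matched, Obese, Lean); points are rats, and black bars give the mean and SD of 5 rats, left out for Igfbp2, which is on a log axis. Igf1, Igfbp5 and Igfbp7 of every Lean rat lay above every rat of the other groups. Igfbp4 had its highest mean in Food matched rats, which overlapped Obese rats.

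Obese rats differed from Lean rats mainly in the ligands and in 2 binding proteins. Igf1, Igfbp5 and Igfbp7 were lower and Igf2 was higher in Obese rats, each by over 1.5-fold with an adjusted p under 0.05, which is the definition of a differentially expressed gene (DEG) here. Thus 4 of 10 members were DEGs, where 22.3% of all genes tested were, and 6 of 10 passed the adjusted p at any fold, where 48.2% of all genes did. The members' median log2 fold change was −0.39 beside −0.01 over all genes tested. With Cmpd 1, Igfbp5 was higher and Igfbp4 lower than in Food matched rats. These 2 of 10 members were DEGs, against 6.19% of all genes, and 4 of 10 passed the adjusted p at any fold, against 22.8% of all genes. The median over members was 0.19 beside 0.01 over all genes. All tests were of 1 edgeR quasi-likelihood model, with Benjamini-Hochberg adjustment over the 17653 genes.

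Ghr, the growth hormone receptor (chromosome 2 of rn6, 53150370 to 53413638), was among the most abundant transcripts, at rank 154 per length in Lean rats. It was at 1077, 983, 1049, 1155 and 1018 CPM in Cmpd 1 rats and at 952, 787, 973, 855 and 1117 CPM in Food matched rats. Obese rats had 1094, 1139, 994, 1074 and 1104 CPM, and Lean rats had 1315, 1115, 1565, 1611 and 1477 CPM. The Obese rats lay close together, and all but rat 2 of them fell below each Lean rat, so the groups overlapped through Lean rat 2 alone. Ghr was 1.31-fold lower in Obese than in Lean rats (log2 fold change −0.39, standard error 0.09, adjusted p = 0.0016 from edgeR), a fold short of the 1.5 required. It was a DEG in Food matched versus Lean rats by a narrow margin (log2 fold change −0.60, edgeR adjusted p = 1.7e-05) and dropped under the fold required in 5 of the fits that left out 1 rat. The log2 difference between Cmpd 1 and Food matched rats was 0.17 (95% interval −0.02 to 0.37), which did not pass.

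Igf1r, the receptor that IGF-I activates (chromosome 1, 128924966 to 129206516), was scarce. Its means were 5.25 ± 0.593 CPM in Cmpd 1, 5.62 ± 0.714 CPM in Food matched, 5.17 ± 1.08 CPM in Obese and 6.74 ± 1.58 CPM in Lean rats (SD, n = 5 each). Lean rat 1 stood apart at 4.01 CPM, against 7.05 to 8.11 CPM in the other Lean rats. Igf1r passed the test in none of the 6 comparisons by edgeR, and its smallest adjusted p was 0.054, in Obese versus Lean.

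Igf1, the main mediator of growth hormone action (chromosome 7, 28412198 to 28486609), was at 250, 273, 276, 377 and 248 CPM in Cmpd 1 rats and at 148, 251, 181, 181 and 234 CPM in Food matched rats. Obese rats had 225, 251, 274, 242 and 240 CPM. Lean rats had 408, 394, 546, 646 and 591 CPM. Every Lean rat was above every other rat, while the 3 obese groups overlapped. Igf1 fell 2.10-fold in Obese relative to Lean rats (log2 fold change −1.07, standard error 0.15, adjusted p = 6.2e-06 from edgeR). In Cmpd 1 versus Food matched rats it was 1.43-fold higher (log2 fold change 0.52, standard error 0.15, edgeR adjusted p = 0.016), which was no DEG. Without Cmpd 1 rat 4, the highest of its group and the shallowest library, that log2 fold change was 0.40, while without Food matched rat 2 it was 0.62 and a DEG.

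Igf2, the fetal growth factor that is imprinted in rodents (chromosome 1, 215828102 to 215846911), ran the other way. It was at 36.6, 12.5, 21.4, 17.0 and 29.1 CPM in Cmpd 1 rats and at 11.4, 15.7, 15.3, 21.1 and 43.7 CPM in Food matched rats. Obese rats had 50.6, 27.6, 34.1, 34.4 and 33.3 CPM, and Lean rats had 14.2, 21.6, 14.4, 19.7 and 16.2 CPM. All Obese rats were above all Lean rats, and Igf2 rose 2.09-fold in Obese rats (log2 fold change 1.06, standard error 0.31, adjusted p = 0.0068 from edgeR). The Cmpd 1 and Food matched rats were spread between and across these ranges. Igf2 of Cmpd 1 and Food matched rats differed by 0.13 on the log2 scale (95% interval −0.52 to 0.77, adjusted p = 0.82 from edgeR). In Food matched versus Obese rats its log2 fold change was −0.75 (adjusted p = 0.37 from edgeR), and without Food matched rat 5, at 43.7 CPM, it was −1.18 (adjusted p = 0.024).

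Among the abundant binding proteins, Igfbp5 changed most. It encodes a binding protein that sticks to matrix and bone and lies on chromosome 9 (80150211 to 80167033), tail to tail with Igfbp2 at a distance of 5421 bases. Igfbp5 was at 551, 1140, 1033, 1281 and 868 CPM in Cmpd 1 rats and at 310, 660, 374, 447 and 741 CPM in Food matched rats. Obese rats had 742, 821, 997, 627 and 700 CPM, and Lean rats had 2010, 2132, 2081, 2226 and 2002 CPM. The Lean rats were tightly grouped and far above the rest. Igfbp5 fell 2.69-fold in Obese relative to Lean rats (log2 fold change −1.43, standard error 0.22, adjusted p = 1.6e-05 from edgeR). It rose 1.92-fold in Cmpd 1 relative to Food matched rats (log2 fold change 0.94, standard error 0.21, adjusted p = 0.0034 from edgeR). Those groups overlapped through Cmpd 1 rat 1, at 551 CPM, which was under Food matched rats 2 and 5.

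Igfbp4 encodes an inhibitory binding protein cut by the protease PAPP-A (chromosome 10, 86950557 to 86962578). Its direction was opposite to that of Igfbp5 in Obese versus Lean and in Cmpd 1 versus Food matched rats. Igfbp4 was at 163, 247, 156, 166 and 211 CPM in Cmpd 1 rats and at 328, 272, 242, 334 and 321 CPM in Food matched rats. Obese rats had 294, 228, 229, 236 and 198 CPM, and Lean rats had 179, 164, 146, 168 and 171 CPM. Cmpd 1 rat 2 alone reached into the Food matched range. Igfbp4 fell 1.58-fold in Cmpd 1 relative to Food matched rats (log2 fold change −0.66, standard error 0.12, adjusted p = 0.00076 from edgeR). In Obese versus Lean rats it was 1.43-fold higher with no overlap (log2 fold change 0.52, edgeR adjusted p = 0.0016), short of a DEG. Food matched rats exceeded Lean rats by 1.81-fold (log2 fold change 0.85, adjusted p = 6.4e-06 from edgeR). In Cmpd 1 versus Lean rats Igfbp4 did not pass (log2 fold change 0.19, adjusted p = 0.24 from edgeR), whereas Igfbp5 was a DEG there (−1.10).

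The start regions of Igfbp5 and Igfbp4 are shown because these were the DEGs with Cmpd 1. The sequences are from RefSeq on the GRCr8 build, a later build than the table's rn6, and run from 250 bases before the start of the gene to 50 bases after it. Igfbp5 is at chr9:81914138-81914437 on the minus strand and Igfbp4 at chr10:84491221-84491520 on the plus strand. Capitals mark the TATA box letters TATAAA, searched on both strands. They stand 40 bases before the start of Igfbp4, on the strand of the gene. On either strand they were found in 14.2% of 33469 rat promoters of this length.
Igfbp5: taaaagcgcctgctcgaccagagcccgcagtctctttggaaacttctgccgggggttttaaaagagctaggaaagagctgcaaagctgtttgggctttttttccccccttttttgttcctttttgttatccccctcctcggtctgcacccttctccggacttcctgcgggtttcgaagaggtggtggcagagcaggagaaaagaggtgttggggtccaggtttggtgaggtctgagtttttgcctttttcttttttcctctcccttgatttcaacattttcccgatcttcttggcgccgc
Igfbp4: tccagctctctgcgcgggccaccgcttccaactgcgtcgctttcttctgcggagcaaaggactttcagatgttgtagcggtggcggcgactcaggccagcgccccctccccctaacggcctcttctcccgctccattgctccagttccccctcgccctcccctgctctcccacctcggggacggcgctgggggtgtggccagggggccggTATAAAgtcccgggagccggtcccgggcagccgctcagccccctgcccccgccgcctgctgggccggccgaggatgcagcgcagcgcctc
No TATAAA was found on either strand in this window of Igfbp5. A match or its absence is a description of the letters and says nothing of the factors bound.

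Because Igfbp5 and Igfbp4 are counted in the same library, their read ratio is free of library scaling. There were 3.38, 4.61, 6.61, 7.71 and 4.11 Igfbp5 reads per Igfbp4 read in Cmpd 1 rats and 0.946, 2.43, 1.54, 1.34 and 2.31 in Food matched rats. The ratio ran between 2.52 and 4.35 in Obese rats and between 11.2 and 14.2 in Lean rats. No Cmpd 1 rat overlapped a Food matched rat, though neither gene separated these groups alone. The ratio was formed after the values were seen and is a description with no test.

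**Figure D2:**
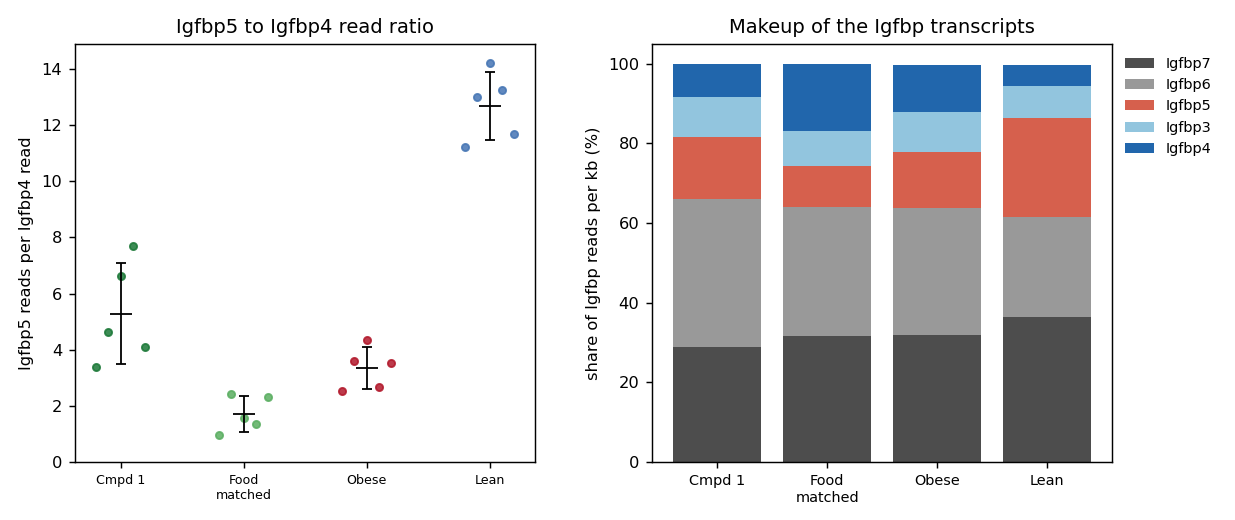
Left, Igfbp5 reads per Igfbp4 read in each rat, with mean and SD of 5 rats; right, mean share of each gene in the summed Igfbp reads per kilobase (%). The ratio was 3.38 to 7.71 in Cmpd 1 and 0.946 to 2.43 in Food matched rats, and Igfbp2 is too scarce to draw.

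Per length, Igfbp6 and Igfbp7 were the leading binding protein transcripts by mean share in all 4 groups, although in Lean rats Igfbp6 (25.1 ± 3.57%) and Igfbp5 (24.9 ± 2.36%) differed by less than their spread (SD, n = 5). Igfbp5 took 15.6% of the summed Igfbp reads per kilobase in Cmpd 1, 10.3% in Food matched, 14.1% in Obese and 24.9% in Lean rats. Igfbp4 took 8.38% in Cmpd 1, 16.8% in Food matched, 11.8% in Obese and 5.30% in Lean rats. The summed Igfbp level was 1049 ± 165 CPM per kilobase in Cmpd 1, 825 ± 74.9 in Food matched, 936 ± 95.8 in Obese and 1436 ± 108 in Lean rats (SD, n = 5 each). Set against Igf1 on the same scale, it was 7.14 ± 0.916 times the Igf1 level in Cmpd 1, 8.17 ± 1.11 times in Food matched, 7.31 ± 0.276 times in Obese and 5.61 ± 1.58 times in Lean rats (SD, n = 5 each). The Obese range of 7.07 to 7.74 held Lean rats 1 and 2, at 7.41 and 7.26, while the other Lean rats were at 4.25 to 4.65.

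Igfbp7, a matrix protein of low IGF affinity (chromosome 14, 33010300 to 33070190), was at 290, 351, 321, 362 and 322 CPM in Cmpd 1 rats and at 258, 277, 263, 299 and 339 CPM in Food matched rats. Obese rats had 356, 354, 346, 279 and 295 CPM, and Lean rats had 626, 596, 531, 521 and 595 CPM. The Lean rats were again apart from all others. Igfbp7 fell 1.76-fold in Obese relative to Lean rats (log2 fold change −0.82, standard error 0.09, adjusted p = 1.4e-07 from edgeR). The log2 difference between Cmpd 1 and Food matched rats was 0.20 (95% interval 0.02 to 0.38, adjusted p = 0.10 from edgeR). The gene overlaps Polr2b on the opposite strand at one end. Whether counting used the strand is unknown, so reads in the overlap cannot be assigned to either gene.

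Igfbp3, the main IGF carrier of blood (chromosome 14, 87457647 to 87465374), was at 184, 269, 259, 403 and 181 CPM in Cmpd 1 rats and at 101, 305, 152, 146 and 176 CPM in Food matched rats. Obese rats had 183 to 248 CPM and Lean rats 246 to 314 CPM. The treated groups were the most scattered, with Cmpd 1 rat 4 and Food matched rat 2 well above their groups. The log2 fold change of Igfbp3 was 0.55 in Cmpd 1 versus Food matched rats (standard error 0.23, adjusted p = 0.086 from edgeR), while without Food matched rat 2 (0.85) or Cmpd 1 rat 1 (0.66) it was a DEG. In Food matched versus Lean rats it was a DEG (log2 fold change −0.65, adjusted p = 0.021 from edgeR), a call that did not hold without Lean rats 1 and 2 (−0.59, adjusted p = 0.075) or without Food matched rat 1 or 4.

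Igfbp6, whose product prefers IGF-II (chromosome 7, 143749221 to 143754054), was at 313, 462, 440, 461 and 404 CPM in Cmpd 1 rats and at 235, 261, 384, 289 and 261 CPM in Food matched rats. Obese rats had 219 to 438 CPM and Lean rats 264 to 479 CPM. Cmpd 1 rat 1 was under Food matched rat 3, and the others were above all of that group. Igfbp6 was 1.45-fold higher in Cmpd 1 than in Food matched rats (log2 fold change 0.54, standard error 0.17, edgeR adjusted p = 0.027), short of a DEG, which it became without Cmpd 1 rat 1 (0.63) or Food matched rat 3 (0.67). Its Obese versus Lean difference did not pass (log2 fold change −0.27, adjusted p = 0.20 from edgeR).

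Igfbp2 (chromosome 9, 80118029 to 80144789) encodes a circulating binding protein that leptin raises in mouse liver. Here it was close to absent except in single rats. It was at 0.0303, 0.0503, 0.812, 0.368 and 0.0879 CPM in Cmpd 1 rats and at 0.0368, 0.0647, 1.05, 0.0273 and 0.0926 CPM in Food matched rats. Obese rats had 0.0585, 13.2, 0.315, 0.0181 and 0.0588 CPM, and Lean rats had 17.6, 10.4, 0.332, 1.26 and 0.352 CPM. Obese rat 2 and Lean rats 1 and 2 stood far above all other rats. Igfbp2 was a DEG in Cmpd 1 versus Lean (log2 fold change −4.57, adjusted p = 0.028 from edgeR) and in Food matched versus Lean rats (−4.58, adjusted p = 0.019). Without Lean rats 1 and 2 these were −1.37 (adjusted p = 0.56) and −1.38 (adjusted p = 0.50), and the Obese versus Lean log2 fold change turned to 2.07 (adjusted p = 0.29). Both calls were also lost without Lean rat 1 alone (−3.61 with Cmpd 1 and −3.63 in Food matched rats), and that of Cmpd 1 without Cmpd 1 rat 1, 2 or 5. By limma-voom neither was a DEG (adjusted p = 0.11 with Cmpd 1 and 0.077 in Food matched rats). In Obese versus Lean rats Igfbp2 was a DEG only in the fit without Obese rat 2 (−5.73).

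The genes of most similar pattern to Igfbp2 over the 20 rats were Upk3b, Msln and Upk1b, by the root mean square difference of centred log2 CPM (0.73, 0.84 and 1.01). Msln encodes mesothelin and Upk3b and Upk1b encode uroplakins, all expressed in mesothelium or urothelium. Msln reached 61.5 CPM in Obese rat 2 and 167 and 50.8 CPM in Lean rats 1 and 2, against at most 9.01 CPM in any other rat. Lean rats 1 and 2 are those with skeletal muscle transcripts, while Obese rat 2 had 16.5 CPM over the 6 muscle markers. The part of these other tissues in the Igfbp2 values was not tested.

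**Figure D3:**
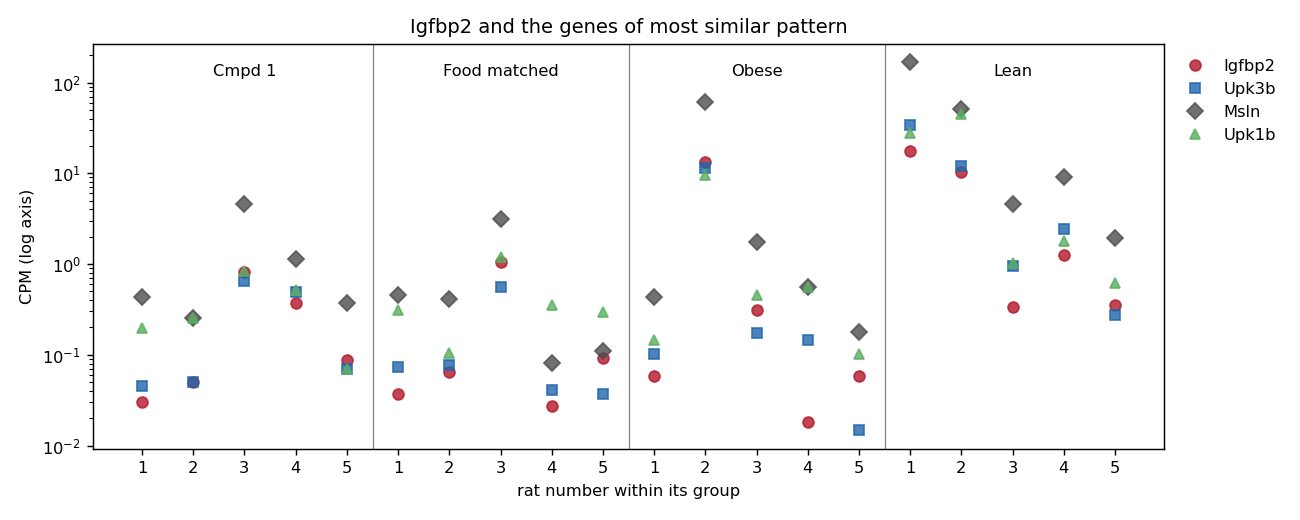
CPM (log axis) of Igfbp2, Upk3b, Msln and Upk1b in each of the 20 rats, by group and rat number. All 4 genes were highest in Lean rats 1 and 2 and Obese rat 2, and rat 3 led the Cmpd 1 and the Food matched rats for each of them.

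By the same measure, each other member had its own closest genes. Those of Igf1 were Dpt, Zfp275 and Esr1 (difference 0.16 to 0.19, where Igf1 itself had an SD of 0.56 on the log2 scale). Dpt, which encodes the matrix protein dermatopontin, averaged 1143 ± 185 CPM in Cmpd 1, 837 ± 93.5 CPM in Food matched, 1026 ± 85.2 CPM in Obese and 2110 ± 285 CPM in Lean rats (SD, n = 5 each). Igfbp7 was closest to Phyh, Map2k6 and Coq10a (0.10 to 0.11), and Ghr to Cyb5b, Stk39 and Ano10 (0.09 to 0.10). Igfbp5 was closest to Me3, Bmp3 and Clec2l (0.29 to 0.30). For Igfbp4 they were Jak3, Cd300le and Olfm1 (0.19 to 0.20), of which Jak3 and Cd300le are genes of immune cells. The remaining members matched less well for their own spread, with Igf2 nearest to Gria3 (0.43), Igfbp3 to Lrrc17 (0.27), Igfbp6 to Ddb2 (0.22) and Igf1r to Zfp169 (0.20).

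By group, macrophage markers moved beside Igfbp4, but not rat by rat within every group. Food matched rat 2 had the highest marker sum of its group (2350 CPM) with Igfbp4 at 272 CPM. Obese rat 1 had the lowest sum of its group (1369 CPM) and its highest Igfbp4 (294 CPM). Cmpd 1 rat 2, in contrast, was highest of its group for both (1348 and 247 CPM). The 6 markers, none at 0 in any library, summed to 1122 to 1348 CPM in Cmpd 1, 1512 to 2350 CPM in Food matched, 1369 to 1734 CPM in Obese and 920 to 1052 CPM in Lean rats. Of these markers 3 were DEGs lower in Cmpd 1 than in Food matched rats, and in Obese versus Lean rats 3 were DEGs with higher levels and 1 with a lower level. Markers of progenitors and fibroblasts, cells that also make Igf1 and binding proteins, summed to 9167 to 10380 CPM in Cmpd 1, 9945 to 14246 CPM in Food matched, 10640 to 17873 CPM in Obese and 7087 to 9428 CPM in Lean rats. The sums hide a split, as 3 of these 7 markers were DEGs higher and 3 DEGs lower in Obese than in Lean rats. Their median log2 fold change was 0.05. Adipocyte markers summed to 19538 to 20419 CPM in Cmpd 1, 18489 to 23475 CPM in Food matched, 19835 to 23594 CPM in Obese and 22780 to 26686 CPM in Lean rats. Gene by gene, 4 of the 7 adipocyte markers were higher and 2 lower in Cmpd 1 than in Food matched rats at an adjusted p under 0.05. Their median log2 fold change was 0.25, which the sums do not show. The part of cell makeup in the member values was not tested.

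Set against the Obese group, no member was a DEG in Cmpd 1 or in Food matched rats, and both comparisons use the same Obese rats. For Cmpd 1 versus Obese 0 of 10 members were DEGs, where 3.53% of all genes were. The smallest adjusted p by edgeR was 0.081, for Igfbp4. An unadjusted p under 0.05 was found for 3 of 10 members and for 4959 of 17653 genes. Of all genes limma-voom called 561 and DESeq2 called 694 in this comparison, and 0 members each. For Food matched versus Obese 0 of 10 were DEGs, where 0% of all genes were by edgeR, and an unadjusted p under 0.05 was found for 6 of 10 members and for 1887 of 17653 genes. limma-voom called 10 and DESeq2 called 69 of all genes in this comparison, and 0 members each. The member furthest from 0 was Igfbp2 (log2 fold change −3.44, 95% interval −6.69 to −0.20), which was 1.17 without Obese rat 2. Next were Igf2 (−0.75, 95% interval −1.39 to −0.11) and Igfbp5 (−0.62, 95% interval −1.07 to −0.17).

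**Figure D4:**
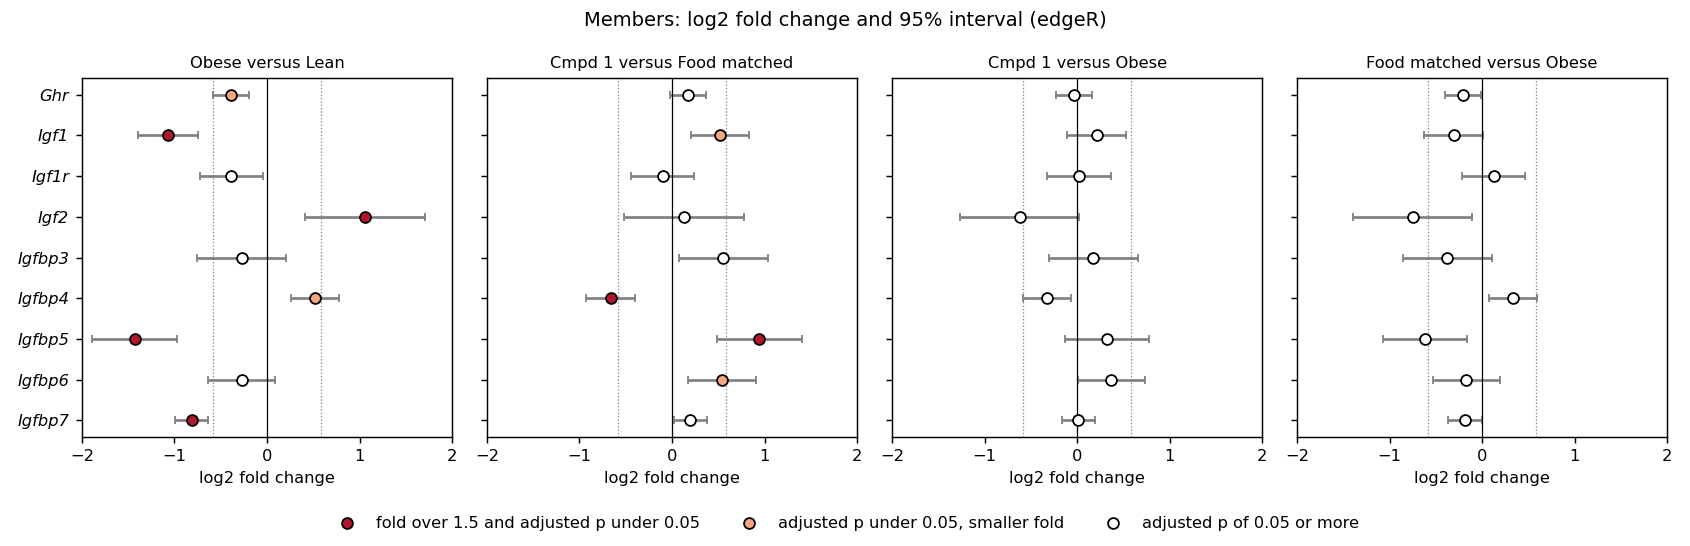
Log2 fold change (x axis) and 95% interval of 9 members in 4 comparisons, from edgeR; Igfbp2 is left out for its width, dotted lines mark a fold of 1.5, and fill gives the call. Igf1, Igfbp5 and Igfbp7 were DEGs below 0 and Igf2 above 0 in Obese versus Lean, Igfbp5 and Igfbp4 were DEGs on opposite sides in Cmpd 1 versus Food matched, and the comparisons with Obese rats held no DEG.

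Both treated groups remained apart from the Lean group, whose 5 rats they share as reference. Against Lean rats, 4 of 10 members were DEGs with Cmpd 1, where 16.6% of all genes were. These were Igf1 (log2 fold change −0.86), Igfbp5 (−1.10), Igfbp7 (−0.80) and Igfbp2, all lower with Cmpd 1. In Food matched versus Lean rats 7 of 10 members were DEGs, where 25.3% of all genes were, with Ghr, Igf1 (−1.38), Igfbp2, Igfbp3, Igfbp5 (−2.04) and Igfbp7 lower and Igfbp4 higher in Food matched rats. The calls of Ghr, Igfbp2 and Igfbp3 in Food matched rats, and of Igfbp2 with Cmpd 1, were lost in some fits, as given above. Leaving out 1 rat at a time gave 5 to 7 members in Food matched and 3 to 4 in Cmpd 1 rats. In the order of the 4 group means, the step from Lean to the next group passed the adjusted p for Igf1, Igfbp5 and Igfbp7, where Cmpd 1 came next, and for Ghr, where Obese came next. No other neighbouring pair of groups passed for any of the 10 members.

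The disease comparison (Obese versus Lean) and the compound comparison (Cmpd 1 versus Food matched) share no library, so their signs can be set side by side. The sign was opposite for 8 of 10 members (80%), where it was opposite for 12251 of all 17653 genes tested (69.4%). The members without overlap between groups numbered 5 in Obese versus Lean, where 33.6% of all genes had none, and 0 in Cmpd 1 versus Food matched, where 14.9% of all genes had none.

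Other genes of the pathway, 33 by name, were read for context, and 32 were in the table and 25 were tested. In Obese versus Lean rats 6 were DEGs higher and 5 were DEGs lower, where 22.3% of all genes tested were DEGs. The median log2 fold change over the 25 was −0.03. In Cmpd 1 versus Food matched rats 1 was a DEG higher and 2 were lower, where 6.19% of all genes were DEGs. The median there was 0.07. The hormone genes were close to silent in this tissue, with 5 reads of Gh1, 1 of Ghrh, 3 of Ghrl and 0 of Prl over all 20 libraries.

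Of 9 genes of growth hormone signalling, 4 were DEGs in Obese versus Lean rats, 2 in each direction, where 22.3% of all genes were. Cish changed most. Cish encodes a suppressor that STAT5 induces and that shuts off the receptor. It was at 8.53, 8.14, 12.1, 33.3 and 13.6 CPM in Cmpd 1 rats and at 4.51, 3.98, 3.49, 3.92 and 4.61 CPM in Food matched rats. Obese rats had 8.59, 9.12, 10.8, 6.43 and 6.46 CPM, and Lean rats had 76.0, 82.4, 32.9, 52.9 and 69.0 CPM. Neither Obese and Lean nor Cmpd 1 and Food matched rats overlapped. Cish fell to 8.28 CPM in Obese rats, against 62.7 CPM in Lean rats (log2 fold change −2.92, standard error 0.32, adjusted p = 2.4e-07 from edgeR). It was a DEG with Cmpd 1 too (log2 fold change 1.86, standard error 0.32, adjusted p = 0.00048 from edgeR), and without Cmpd 1 rat 4 its log2 fold change was 1.37.

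Cish and Igf1 are both known STAT5 targets, and their start regions are shown for that reason, from RefSeq on GRCr8 over the same window. Cish is at chr8:116850719-116851018 and Igf1 at chr7:24172282-24172581, both on the plus strand. Capitals mark TTCNNNGAA, the core of a STAT5 site, searched on both strands, on which it reads alike.
Cish: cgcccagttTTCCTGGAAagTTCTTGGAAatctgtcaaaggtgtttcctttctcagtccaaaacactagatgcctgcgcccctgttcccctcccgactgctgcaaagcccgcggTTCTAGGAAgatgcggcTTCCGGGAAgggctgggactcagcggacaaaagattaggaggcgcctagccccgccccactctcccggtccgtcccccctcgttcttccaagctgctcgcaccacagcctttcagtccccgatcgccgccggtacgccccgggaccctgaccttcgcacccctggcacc
Igf1: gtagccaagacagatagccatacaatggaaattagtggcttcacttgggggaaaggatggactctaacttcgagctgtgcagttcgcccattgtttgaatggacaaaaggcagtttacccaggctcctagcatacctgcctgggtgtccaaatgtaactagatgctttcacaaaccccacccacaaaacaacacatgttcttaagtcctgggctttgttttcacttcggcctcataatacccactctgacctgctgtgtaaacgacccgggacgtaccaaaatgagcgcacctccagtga
The Cish window held 4 matches that do not overlap, TTCCTGGAA, TTCTTGGAA, TTCTAGGAA and TTCCGGGAA, which begin 241, 230, 136 and 119 bases before the start. At least 1 match was present in 8.87% of 33469 rat promoters, and 4 or more in 2 of them. None of the 11 windows of the 10 members held a match, which says only that the letters are not in these 300 bases. A match is not a measured site.

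Jak2, the kinase bound to the receptor, rose in Obese rats (log2 fold change 0.62, adjusted p = 3.1e-07 from edgeR), at 87.1 to 113 CPM against 56.5 to 67.1 CPM in Lean rats. Its call as a DEG was lost without Lean rat 1 (0.58) or Obese rat 4 (0.56), which took it just under the fold threshold. Socs2, a feedback inhibitor of growth hormone signalling, fell in Obese rats (log2 fold change −0.72, adjusted p = 5.7e-05 from edgeR), at 7.64 to 11.6 CPM against 13.3 to 19.2 CPM in Lean rats. Socs3, an inhibitor induced by leptin and cytokines and named here after its values were seen, was a DEG as well (log2 fold change 0.99, edgeR adjusted p = 0.014), but not without Obese rat 4 (0.56, adjusted p = 0.092) or with only these 2 groups in the fit (adjusted p = 0.063).

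Among 8 other receptors and docking proteins, Irs1, which carries the signal of the insulin and IGF-I receptors, was the DEG in Obese versus Lean rats (log2 fold change −0.86, adjusted p = 1e-04 from edgeR). It was at 16.7 to 23.4 CPM in Obese and 24.6 to 48.1 CPM in Lean rats. A further 3 genes of this group were higher and 3 lower at an adjusted p under 0.05 with smaller folds. At any fold, 48.2% of all genes passed that adjusted p. In Cmpd 1 versus Food matched rats edgeR, limma-voom and DESeq2 each called 0 of these 8, although 5 had an unadjusted p under 0.05, and 2 were higher and 1 lower at an adjusted p under 0.05. Igfals, which encodes the acid-labile subunit of the circulating IGF complex, fell in Obese rats but averaged only 0.125 CPM there and 0.315 CPM in Lean rats (log2 fold change −1.32, adjusted p = 0.031 from edgeR), and the call was lost when any of 4 single rats was left out and by limma-voom (−1.19, adjusted p = 0.055).

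The proteases that cut binding proteins and their inhibitors held 3 DEGs of 5 in Obese versus Lean rats, where 22.3% of all genes were DEGs. Pappa, which encodes PAPP-A, the protease that frees IGF from the Igfbp4 product, fell to 0.289 to 0.769 CPM in Obese rats, against 1.34 to 2.69 CPM in Lean rats (log2 fold change −1.84, adjusted p = 2.2e-05 from edgeR). Pappa2, whose product cuts those of Igfbp3 and Igfbp5, rose to 2.85 to 6.29 CPM in Obese rats, against 1.04 to 2.05 CPM in Lean rats (log2 fold change 1.56, adjusted p = 0.00084 from edgeR). Pappa2 was also the 1 pathway gene that was a DEG in Cmpd 1 versus Obese rats (log2 fold change −1.64), at 1.00 to 2.48 CPM in Cmpd 1 rats. Stc2, which encodes the PAPP-A inhibitor stanniocalcin-2, was at 21.1, 20.8, 15.6, 17.6 and 16.0 CPM in Cmpd 1 rats and at 54.0, 18.3, 28.4, 41.3 and 32.7 CPM in Food matched rats. Food matched rat 2 alone lay among the Cmpd 1 rats. Stc2 fell with Cmpd 1 (log2 fold change −0.94, standard error 0.21, adjusted p = 0.0035 from edgeR) and rose in Obese versus Lean rats (0.95, standard error 0.21, adjusted p = 0.00099).

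Of the proteins that bind Igf2 mRNA, Igf2bp2 rose in Obese rats, where it was at 1.25 to 2.47 CPM against 0.336 to 0.820 CPM in Lean rats (log2 fold change 1.84, adjusted p = 9.6e-06 from edgeR). It fell in Cmpd 1 relative to Food matched rats (log2 fold change −1.05, adjusted p = 0.0053 from edgeR), at 0.796 to 2.19 CPM in Cmpd 1 rats and 2.15 to 3.61 CPM in Food matched rats, with overlap through Cmpd 1 rat 1. Igf2bp3 was scarcer still, rose in Obese versus Lean rats (log2 fold change 1.93, adjusted p = 9.1e-05 from edgeR) and was not past the test with Cmpd 1 (−0.23, adjusted p = 0.68).

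**Figure D5:**
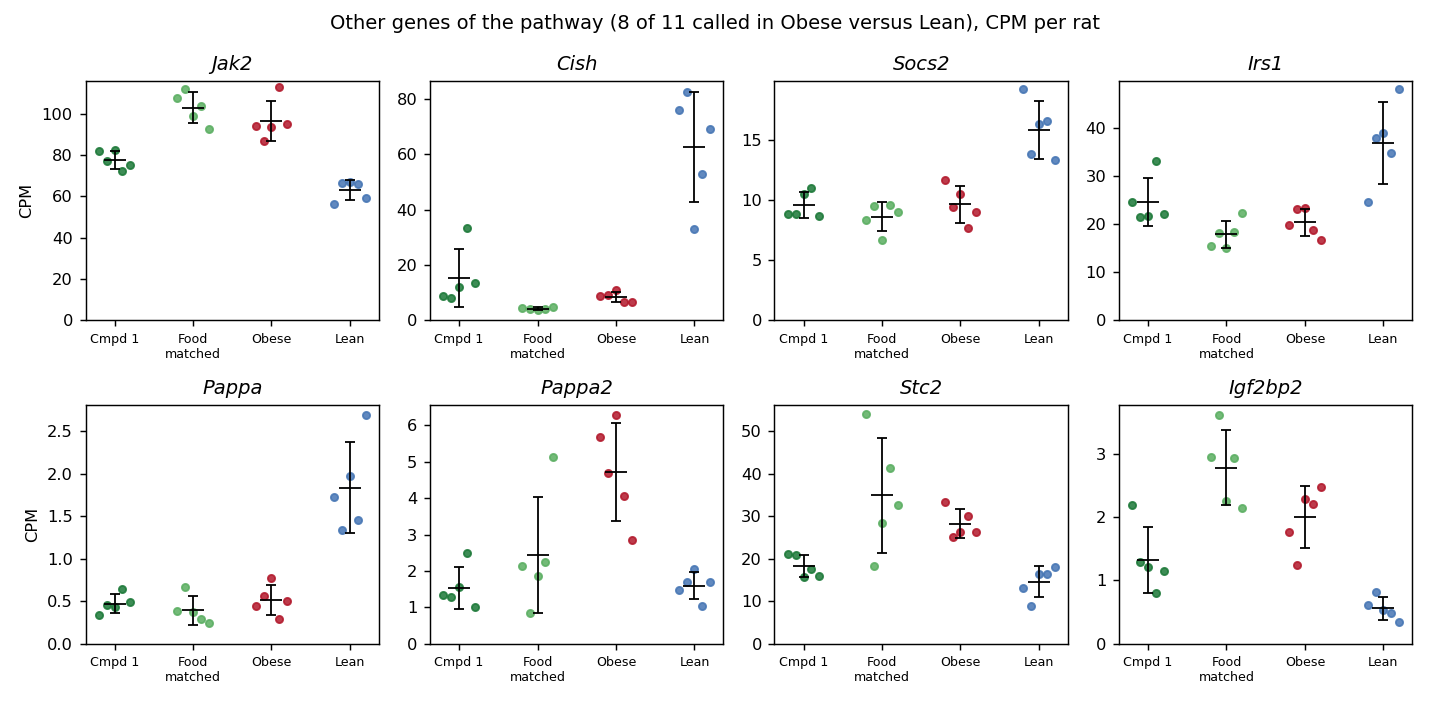
CPM in each rat for 8 of the 11 pathway genes that were DEGs in Obese versus Lean rats, with mean and SD of 5 rats per group (Cmpd 1, Food matched, Obese, Lean). Cish was at 32.9 to 82.4 CPM in Lean rats and at most 33.3 CPM in any other, a value reached by Cmpd 1 rat 4.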

How the data were processed

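Stranded mRNA libraries of 20 iWAT samples were sequenced, and the deposited table holds raw counts per gene, which the authors made from reads mapped to one place. The study's methods name rn6, STAR and featureCounts, while the submitters' processing notes name STAR 2.5.2, Subread 1.5.1 and GRCh38, a human build. Whether counting used the strand is not given in the sources used here. A gene was tested if it had a read in more than 10 libraries, which excluded 14892 of 32545.

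From these counts, 1 quasi-likelihood model of the 4 groups was fitted with edgeR 4.0.16 (R 4.3.3), TMM scaling and 16 residual degrees of freedom. A DEG needed a fold over 1.5 and a Benjamini-Hochberg adjusted p under 0.05 over all 17653 genes. Standard errors were computed back from the log2 fold change and the F statistic of its quasi-likelihood test. The 95% intervals use them with a t distribution of 16 degrees of freedom and are approximate. Each library is a separate rat. The code was tested on simulated counts. limma 3.58.1 (voom) and DESeq2 1.42.0, other scalings and filters, a replicate block, fits on 2 groups, and fits without single rats or without Lean rats 1 and 2 were alternatives.

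Members, the 33 pathway genes and 10 lists of 55 cell type markers were chosen with earlier results of these data known. H19 and Pecam1 were not matched by symbol. Named genes are the members, up to 3 DEGs of smallest adjusted p per pathway gene group in Obese versus Lean and in Cmpd 1 versus Food matched rats, and for each member the 3 genes of at least 1 CPM (of 12025) closest in pattern. Levels are compared between genes only as CPM per kilobase, from the table's gene lengths. RefSeq promoters (GRCr8) matched all 10 members, with 11 start regions, and 25 of the 33 pathway genes.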

Additional observations from a re-analysis of the deposited data

Results flagged for a closer look

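Over the 10 members and 4 groups, 5 of 40 sets of 5 rats held a rat far from the others by Dixon's ratio. The nominal rate of about 1 in 20 is for independent, normally spread values. The members share the same rats and CPM need not be so spread, so no excess can be read from the 5. Igf1 was at 377 CPM in Cmpd 1 rat 4, above the other rats of its group. Igf1r was at 4.01 CPM in Lean rat 1, below the others. For Igfbp2, Food matched rat 3 (1.05 CPM) and Obese rat 2 (13.2 CPM) stood above their groups. Igfbp3 was at 183 CPM in Obese rat 1, below the others.

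Cmpd 1 rat 4, the shallowest library, was the highest of its group for 5 of the 10 members. Cmpd 1 rat 1 was the lowest of its group for 5 and Food matched rat 1 for 6. These counts are of the members only, and whether these rats were as extreme over all genes, or a link to depth, was not tested.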

How the results depend on the processing

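Over all alternatives that left out no single rat, the counts of DEGs among members stayed within 1.5 times the reported ones. The count among the 33 pathway genes moved past that in Cmpd 1 versus Obese alone, where the reported 1 became 2 with at least 1 CPM required in 5 libraries, 2 with only the 2 groups compared, 2 with the replicate block and 3 by DESeq2. Signs turned for Igfbp2 in Obese versus Lean without Lean rats 1 and 2 (2.07), and for differences near 0: Igfbp2 in Cmpd 1 versus Food matched (−0.011), Igf1r (−0.0012) and Igfbp7 (−0.00979) in Cmpd 1 versus Obese with no filter on low counts, and Ghr in Cmpd 1 versus Obese scaled by library size alone (0.024). The cause was not tested.

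Leaving out 1 rat at a time gave 2 to 4 members as DEGs in Cmpd 1 versus Food matched (4 without Cmpd 1 rat 1 or Food matched rat 2), and 0 to 1 in Food matched versus Obese (Igf2, without Food matched rat 5). Against Lean rats it gave 5 to 7 members in Food matched, 3 to 4 in Cmpd 1 and 4 to 5 in Obese rats. Pathway DEGs numbered 1 to 3 in Cmpd 1 versus Obese and 0 to 1 in Food matched versus Obese (Pappa2, without Food matched rat 5). Log2 fold changes that took both signs ran from −0.096 to 0.56 (Igf2) and −1.15 to 2.17 (Igfbp2) in Cmpd 1 versus Food matched. In Cmpd 1 versus Obese they ran from −0.049 to 0.15 (Igf1r), −4.60 to 1.18 (Igfbp2), −0.038 to 0.28 (Igfbp3) and −0.044 to 0.056 (Igfbp7). The range was −5.59 to 1.17 for Igfbp2 in Food matched versus Obese and −0.12 to 0.47 for Igf2 in Food matched versus Lean. In Cmpd 1 versus Lean it was −0.31 to 0.010 for Igfbp3 and −0.011 to 0.19 for Igfbp6. None of these was a DEG in the reported fit.

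Rats of different groups share numbers. Of 30 pairs of same-numbered rats 1 had deviations that correlated over 0.1 (range −0.10 to 0.15), and 4 correlated best with their own number, so the numbers were not taken as pairs. With the replicate block, Igfbp3 became a DEG in Cmpd 1 versus Food matched (0.585, adjusted p = 0.044), and the calls of Igfbp2 in Cmpd 1 versus Lean (adjusted p = 0.058) and of Igfals in Obese versus Lean (adjusted p = 0.051) were lost. Igfbp2 had 1 to 75 reads in each library other than Obese rat 2 (773) and Lean rats 1 and 2 (901 and 737), so its level in most rats rests on few reads at this depth. The scarce genes Pappa and Igf2bp3 lost no Obese versus Lean call when single rats were left out.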

Other observations

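The other lists of cell type markers were read for the makeup of the tissue. In Obese versus Lean rats, all 4 liver and intestine markers and all 6 skeletal muscle markers were DEGs lower in Obese rats, as were 4 of 7 adipocyte markers, 3 of 4 tested markers of epithelium and gland, 2 of 4 Schwann cell markers and 1 of 5 mural markers. DEGs higher in Obese rats were 1 adipocyte marker, 1 of epithelium and gland and 1 of 6 lymphoid markers. These calls are from edgeR. For skeletal muscle limma-voom called 0 of 6 markers and DESeq2 6. For liver and intestine each of them called 1 of 4, and for epithelium and gland limma-voom called 1 of 4 and DESeq2 3. The muscle markers summed to 7.42 to 17.7 CPM in Obese rats, against 2801 and 4848 CPM in Lean rats 1 and 2 and 18.5 to 21.0 CPM in the other Lean rats. Of the liver and intestine markers, Alb was no higher than 17.8 CPM in Obese rats, against 91.2 to 150 CPM in Lean rats, whereas Apob, Apoa1 and Apoa4 stayed at or under 0.509 CPM in every Obese rat and in Lean rats 1 to 4, with Lean rat 5 alone at 36.2, 46.2 and 44.0 CPM. The 7 progenitor and fibroblast markers split into 3 higher and 3 lower, and edgeR, limma-voom and DESeq2 each called 0 of 4 endothelial markers, with 2 at an adjusted p under 0.05 by edgeR.

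In Cmpd 1 versus Food matched rats 1 adipocyte, 1 mural and 1 liver and intestine marker were DEGs higher with Cmpd 1, and 1 progenitor and fibroblast marker and 1 Schwann cell marker were lower. By edgeR 0 lymphoid, endothelial, epithelial or skeletal muscle markers were DEGs there, with 1 muscle marker at an unadjusted p under 0.05, while DESeq2 called 4 of 6 muscle markers and limma-voom 0.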
